A study of Mus musculus with 8 samples.

Results

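Wnt pathway genes were described across 4 cultured mouse cell types by their transcript level and by calls of N6-methyladenosine (m6A), a methyl mark on adenosines inside mRNA. Members were taken by symbol: the Wnt, Fzd, Dvl, Axin, Sfrp and Dkk families by name and number, and Lrp5, Lrp6, Apc, Ctnnb1, Gsk3a, Gsk3b, Tcf7, Tcf7l1, Tcf7l2, Lef1, Porcn and Wls. The rule found 46 genes, with 58 transcripts, among 15359 genes. Of these, 45 encode proteins, and 1, Fzd10os, is a non-coding transcript named for the strand opposite Fzd10. By role they comprised 12 Wnt ligands, 2 ligand export genes, 12 receptors, 6 secreted inhibitors, 9 cytoplasmic genes and 4 TCF/LEF factors.

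C57BL/6 mice were the source of all cells. The embryonic stem cells (ESC, passage 14) and induced pluripotent stem cells (iPSC, passage 22) were grown in medium with serum replacement and leukemia inhibitory factor. Neural stem cells (NSC, passage 16) came from E12.5 fetal brain and were kept with EGF and bFGF, and testicular Sertoli cells (SC, passage 2) were kept in medium with bovine serum. Each cell type gave 1 RNA library and 1 library enriched with an m6A antibody, both from mRNA broken into fragments of about 100 nt. With 1 library per assay and cell type, the differences below lack any check by replicates, and no p-value was computed. ESC and iPSC are different cells, as are NSC and SC, and neither pair is a pair of replicates.

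Wnt proteins are secreted lipid-modified signals. Porcn attaches the lipid and Wls carries the ligand to the cell surface, where Frizzled receptors and the co-receptors Lrp5 and Lrp6 bind it. Without a ligand, a complex of Axin, Apc and Gsk3 marks β-catenin (Ctnnb1) for destruction. With a ligand, Dishevelled (Dvl) proteins help to shut that complex down, and β-catenin joins TCF/LEF factors on DNA. Mouse ESC respond to Wnt signals, which favour self-renewal, and fetal neural progenitors and the embryonic gonad also use the pathway.

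Levels are in FPKM, fragments per kilobase of transcript scaled to library size, a unit per length that allows genes to be set side by side. Differences are on the log2(FPKM + 1) scale, which understates those of genes at low levels. The 2-fold limit is on this scale, while folds given for single genes are plain ratios of FPKM. Members at 1 FPKM or more numbered 25 (ESC), 24 (iPSC), 22 (NSC) and 32 (SC), of 46. The shares over all genes were 67.8% (ESC), 68.7% (iPSC), 71.5% (NSC) and 73.8% (SC). In all, 39 members reached 1 FPKM in at least 1 library, 16 reached it in all 4, and 7 stayed below it throughout. Of all 15359 genes, 13577 reached it in at least 1 library and 8259 in all 4. The median member stood at 1.31 (ESC), 1.18 (iPSC), 0.871 (NSC) and 5.28 FPKM (SC), against medians over all genes of 2.96, 3.35, 5.73 and 7.58.

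The summed FPKM ranged from 394600 in iPSC to 818860 in SC, and read depth is unknown. All 13 Sertoli cell markers measured were at 1 FPKM or more in SC, as were all 12 pluripotent cell markers in ESC and 11 of them in iPSC, where Sall4 stood at 0.0925 FPKM. Marker levels are those of the transcript with the highest mean FPKM for each gene and were not summed over transcripts. A low value, such as that of Sall4, therefore need not hold for the whole gene. In NSC, 9 of 12 neural stem cell markers reached 1 FPKM, while Sox1 was listed at 0, Olig2 stood at 0.0631 and Fabp7 at 0.380 FPKM; 6 of 7 neuron markers also reached 1 FPKM there. Fibroblast and peritubular myoid markers summed to 28.7 (ESC), 66.0 (iPSC), 30.0 (NSC) and 4626 FPKM (SC). In SC, 9 of 13 were at 1 FPKM or more, beside 73.8% of all genes. The 4 Leydig cell markers summed to 104 FPKM in SC and to under 10 elsewhere. In SC the sum came mostly from Star at 56.0 and Cyp11a1 at 46.3 FPKM. Hsd3b1 stood at 0.972 FPKM in SC, and Insl3 at 0.903 there against 8.58 in ESC.

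**Figure D1:**
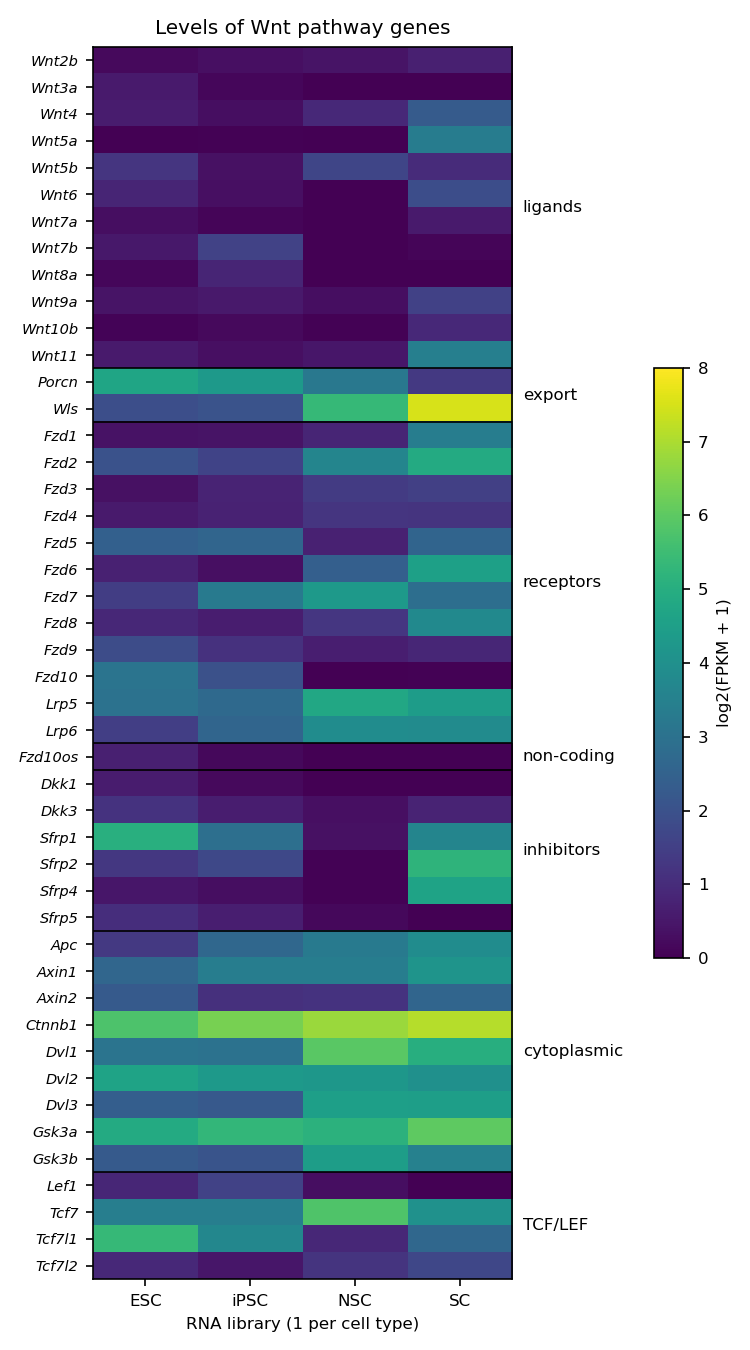
Levels of the 46 Wnt pathway genes as log2(FPKM + 1), by colour, in 1 RNA library of each of 4 cell types, grouped by role. The brightest cells are Wls in SC (181 FPKM) and Ctnnb1 in SC, NSC and iPSC (137, 110 and 80.3 FPKM). Most Wnt ligand rows are dark outside SC.

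Wnt ligand transcripts were low, and less so in SC. Of the 12 ligands, 1 reached 1 FPKM in each of ESC, iPSC and NSC, and 5 did in SC. Of all genes, 67.8% (ESC), 68.7% (iPSC), 71.5% (NSC) and 73.8% (SC) did. The median ligand in SC stood at 0.951 FPKM, against 7.58 over all genes. Summed over the 12, the level was 4.90 (ESC), 4.88 (iPSC), 4.10 (NSC) and 30.7 FPKM (SC). The ligands at 1 FPKM or more were Wnt5b in ESC and NSC, Wnt7b in iPSC, and Wnt4, Wnt5a, Wnt6, Wnt9a and Wnt11 in SC.

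Wnt11 and Wnt5a, ligands best known for signalling that does not run through β-catenin, were the most abundant in SC. Wnt11 stood at 0.506 (ESC), 0.251 (iPSC), 0.401 (NSC) and 9.89 FPKM (SC). Wnt5a stood at 3.22e-07 (ESC), 0.0372 (iPSC) and 9.16 FPKM (SC), with NSC listed at 0. Both were thus high in SC and below 1 FPKM in the other 3 libraries. Wnt4, a ligand known from ovary development, stood at 0.527 (ESC), 0.236 (iPSC), 0.893 (NSC) and 3.95 FPKM (SC), and Wnt6 at 0.759, 0.254, 0.0203 and 2.72. Wnt9a reached 1.91 FPKM in SC and was between 0.224 and 0.447 elsewhere.

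A few ligands had their highest value outside SC. Wnt5b stood at 1.36 (ESC), 0.273 (iPSC), 2.19 (NSC) and 0.992 FPKM (SC). Wnt7b stood at 2.02 in iPSC and 0.417 in ESC, and at 0.0117 and 0.0714 in NSC and SC. Wnt3a, a ligand used to activate β-catenin in culture, was at 0.482 (ESC) and 0.112 FPKM (iPSC), and both differentiated libraries listed it at 0. Wnt8a was at 0.761 in iPSC, and Wnt2b, Wnt7a and Wnt10b did not reach 1 FPKM in any library.

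The 2 export genes ran in opposite orders. Porcn (NM_016913), the acyltransferase, stood at 25.1 (ESC), 18.5 (iPSC), 8.21 (NSC) and 1.52 FPKM (SC). Wls (NM_026582), the carrier protein, stood at 2.75 (ESC), 3.14 (iPSC), 40.3 (NSC) and 181 (SC). Porcn was highest in ESC and lowest in SC, and Wls the reverse, with a log2 range of 5.60 that was the widest of all members. Between NSC and SC, Porcn was 5.38-fold higher in NSC and Wls 4.49-fold higher in SC. Summed over its 3 transcripts, Porcn stood at 28.2, 21.8, 11.8 and 2.12 FPKM, where iPSC lies under 2-fold above NSC.

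Frizzled receptors differed in which library held them. Fzd2 stood at 3.03 (ESC), 2.02 (iPSC), 11.5 (NSC) and 28.9 FPKM (SC), and Fzd6 at 0.676, 0.255, 4.33 and 22.2. In iPSC the other Fzd6 transcript held 84.7% of the sum, and the summed levels were 0.712, 1.66, 5.75 and 29.9 FPKM, with iPSC above ESC. For both, NSC lay at least 2-fold above the pluripotent libraries and SC above NSC. Fzd1 and Fzd8 were high in SC alone: Fzd1 stood at 0.298 (ESC), 0.338 (iPSC), 0.765 (NSC) and 9.38 FPKM (SC), and Fzd8 at 0.862, 0.568, 1.39 and 13.03.

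Other Frizzled genes peaked elsewhere. Fzd7, a receptor described in mouse and human pluripotent cells, stood at 1.71 (ESC), 8.59 (iPSC), 18.7 (NSC) and 6.38 FPKM (SC), so that its highest value lay in NSC and its lowest in ESC. Fzd10 stood at 7.51 (ESC), 2.97 (iPSC) and 0.0398 FPKM (SC), with NSC listed at 0. It was thus expressed in the pluripotent libraries and at or near 0 in the others. Fzd10os followed it at lower levels, with 0.636 in ESC, 0.118 in iPSC and listed values of 0 in NSC and SC; strandedness is not given, so reads of the pair may not be separable. Fzd5 was at 4.43, 5.13, 0.650 and 4.94 FPKM, lowest in NSC, and Fzd9 at 2.60 in ESC and 0.593 in NSC. Fzd3 and Fzd4 stayed between 0.281 and 1.84 FPKM in all libraries.

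The co-receptors stood higher in the differentiated libraries. Lrp5 stood at 7.05 (ESC), 5.66 (iPSC), 26.7 (NSC) and 20.6 FPKM (SC). Lrp6 stood at 1.82, 5.13, 13.9 and 13.4 FPKM in the same order. In both genes NSC and SC lay close together and above both pluripotent libraries, and Lrp6 was 2.82-fold higher in iPSC than in ESC.

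Secreted inhibitors were all below 1 FPKM in NSC. The 6 measured summed to 36.7 (ESC), 10.4 (iPSC), 0.694 (NSC) and 72.0 FPKM (SC). Sfrp proteins resemble the ligand-binding part of Frizzled and bind Wnts outside the cell. Sfrp1 stood at 32.0 (ESC), 6.60 (iPSC), 0.289 (NSC) and 11.4 FPKM (SC). Sfrp2 stood at 1.46, 2.30, 0.0224 and 35.6 FPKM, and Sfrp4 at 0.397, 0.236, 0.0220 and 24.2. ESC therefore held mainly Sfrp1, whereas SC held all of Sfrp1, Sfrp2 and Sfrp4. The co-receptor antagonist gene Dkk1 reached 0.518 FPKM in ESC and was listed at 0 in NSC and SC, and Dkk3 and Sfrp5 were at 1.26 and 1.06 FPKM in ESC and below 1 elsewhere.

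All 9 cytoplasmic genes stood at 1 FPKM or more in every library, beside 8259 of all 15359 genes. Ctnnb1 (NM_001165902) stood at 53.2 (ESC), 80.3 (iPSC), 110.4 (NSC) and 137 FPKM (SC). Summed over its 2 transcripts it stood at 57.5, 182, 213 and 229 FPKM. ESC was the lowest on both counts, and further below the rest in the sums, since transcript NM_007614 stood at 4.31 FPKM in ESC and between 91.5 and 102 elsewhere. In ESC, NM_001165902 made up 92.5% of the sum, against 44.2% (iPSC), 51.9% (NSC) and 60.0% (SC). How FPKM is split between transcripts of 1 gene is an estimate with no error given.

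Among Dishevelled genes, Dvl1 and Dvl3 parted the libraries and Dvl2 did not. Dvl1 stood at 7.43 (ESC), 7.11 (iPSC), 61.2 (NSC) and 31.2 FPKM (SC), and Dvl3 at 4.24, 3.71, 22.0 and 21.4. Dvl2 ranged from 15.1 FPKM in SC to 23.7 in ESC. Dvl2 was thus the main Dishevelled transcript of the pluripotent libraries and Dvl1 that of NSC and SC.

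The kinase genes showed a like contrast. Gsk3b stood at 3.78 (ESC), 3.24 (iPSC), 20.9 (NSC) and 10.5 FPKM (SC). Gsk3a stood at 28.6, 37.9, 34.5 and 63.2 FPKM. Gsk3a stood above Gsk3b in all 4 libraries, and the gap was narrowest in NSC. The scaffold gene Axin1 stood at 5.21, 9.50, 9.45 and 16.6 FPKM, and Apc at 1.53, 5.36, 8.84 and 13.9. Both were lowest in ESC and highest in SC. Axin2, a feedback inhibitor whose transcription is a common readout of β-catenin activity, stood at 3.79 (ESC), 1.15 (iPSC), 1.23 (NSC) and 5.15 (SC), so it did not follow Axin1.

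The leading TCF/LEF factor differed between the pluripotent and the differentiated libraries. Tcf7l1 (NM_009332), which acts mainly as a repressor in mouse ESC, stood at 39.9 (ESC), 12.05 (iPSC), 0.848 (NSC) and 5.40 FPKM (SC). Tcf7, which mouse ESC use as an activator, stood at 9.72, 9.74, 54.0 and 15.4 FPKM. Tcf7l1 led in ESC and iPSC and Tcf7 in NSC and SC, and NSC held the extremes of both. Lef1 peaked in iPSC at 1.97 FPKM and was at 0.0171 in SC. Tcf7l2 stayed between 0.391 and 2.29 FPKM on its leading transcript, and between 1.20 and 4.71 summed over its 5 transcripts.

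Pluripotent and differentiated cells were compared by asking whether each library of one side exceeded each of the other by 2-fold or more. Among the 39 members at 1 FPKM or more in 1 library, Fzd10, Porcn and Tcf7l1 were higher in both pluripotent libraries, with mean log2 differences of 2.51, 2.23 and 2.75. These 3 made up 7.69%, against 5% of all genes. With levels summed over transcripts Porcn no longer passed, which left 2 members. Another 8 were higher in both differentiated libraries, namely Dvl1, Dvl3, Fzd2, Fzd6, Gsk3b, Lrp5, Lrp6 and Wls, or 20.5% against 12% of all genes (1696 of 13577). The widest was Wls with a log2 difference, pluripotent minus differentiated, of -4.46, followed by Fzd6 with -2.94, Fzd2 with -2.47 and Dvl1 with -2.44. The median over members was -0.87 and that over all genes -0.64.

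The balance moved with the scaling of the libraries. After each library was divided by its median ratio, 3 members were higher in the pluripotent pair, against 8.94% of all genes, and 4 in the differentiated pair (Dvl3, Fzd2, Fzd6 and Wls), against 6.03%. The pluripotent-high share of 7.69% then lay below that of all genes. The median shifted from -0.64 to -0.06 over all genes and from -0.87 to -0.36 over members. With a pseudocount of 5 the counts were 0 and 5, against 2.07% and 5.27% of all genes. Without the NSC library the differentiated-high count was 18 of 39, where SC alone had to lie above the pluripotent pair, as 38.1% of all genes did. The pluripotent-high count was 5 of 37 without ESC (against 7.32% of all genes) and 6 of 32 without SC (against 9.84%).

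ESC and iPSC differed for 8 of 27 members at 1 FPKM or more in either. Axin2, Fzd10, Sfrp1 and Tcf7l1 were at least 2-fold higher in ESC, which is 14.8% against 13% of all genes. Sfrp1 was 4.84-fold, Tcf7l1 3.31-fold and Axin2 3.29-fold higher in ESC. Apc, Fzd7, Lrp6 and Wnt7b were higher in iPSC, again 14.8%, against 13.6% of all genes, with Fzd7 5.03-fold and Apc 3.50-fold higher. Both shares lay near the background. With levels summed over transcripts Ctnnb1 was also higher in iPSC. Of 8 fibroblast and peritubular myoid markers tested, 5 also stood higher in iPSC, among them Acta2 at 0.247 (ESC) and 18.8 FPKM (iPSC) and Tagln at 1.12 and 27.7. From the same list 1 marker, Des, stood higher in ESC, at 22.3 FPKM against 4.47 in iPSC. Of 5 germ cell markers 3 stood higher in iPSC and 0 in ESC, with summed levels of 55.6 (ESC) and 135 FPKM (iPSC). The part of these cells in the differences was not tested. Apc and Lrp6 have transcripts of 12811 and 9368 nt. Over all genes, the median difference ESC minus iPSC was 0.49 for the shortest of 3 equal groups by transcript length and -0.47 for the longest, from 3666 nt up, and the part of length in these 2 differences was not tested. Among the 8 members tested in the longest group the median was -0.000299. With a pseudocount of 5, 2 members (Sfrp1 and Tcf7l1) remained higher in ESC and 1 (Fzd7) in iPSC, against 5.86% and 4.36% of all genes. With 0.1 the ESC-high count was 7 of 27, against 18.2% of all genes.

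SC stood above NSC for many members. Of 33 at 1 FPKM or more in either library, 16 were at least 2-fold higher in SC (48.5% against 35.6% of all genes) and 3 in NSC (9.09% against 15%). Those higher in SC comprised the ligands Wnt4, Wnt5a, Wnt6, Wnt9a and Wnt11, the receptors Fzd1, Fzd2, Fzd5, Fzd6 and Fzd8, all of Sfrp1, Sfrp2 and Sfrp4, and Wls, Axin2 and Tcf7l1. Log2 differences, NSC minus SC, were -5.16 for Sfrp2, -4.62 for Sfrp4, -3.35 for Wnt5a and -3.26 for Sfrp1. Fzd7, Porcn and Tcf7 were higher in NSC, with differences of 1.42, 1.87 and 1.75.

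The median over members was -0.85, beside -0.51 over all genes. After scaling, 13 of 33 were higher in SC (against 23.7% of all genes) and 5 in NSC (against 21.6%), and the medians were -0.33 over members and -0.02 over all genes. With a pseudocount of 5, 10 of 33 were higher in SC, against 25% of all genes. Fibroblast and peritubular myoid markers also stood higher in SC, in 8 of 10 tested, with Acta2 at 1795 FPKM in SC and 0.0110 in NSC, while Col1a2 and Postn were listed at 0 in NSC. From the same list 1 marker, Thy1, stood higher in NSC, at 3.38 FPKM against 0.521 in SC. The part of fibroblasts and myoid cells in the higher Wnt5a, Sfrp2 and Sfrp4 values of SC was not tested. In bulk RNA more cells of a type and more RNA per cell cannot be told apart.

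**Figure D2:**
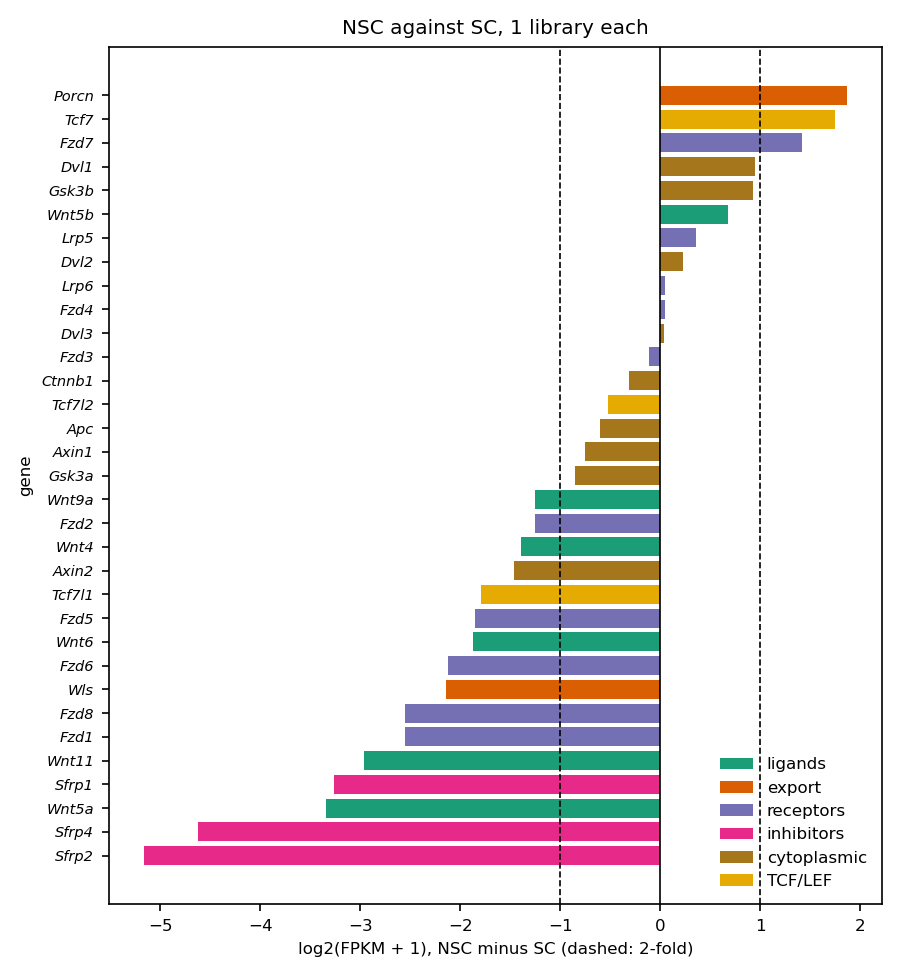
Difference in log2(FPKM + 1), NSC minus SC, for the 33 members at 1 FPKM or more in either library, 1 library each, coloured by role. Bars beyond the dashed lines pass 2-fold: 16 point to SC, with Sfrp2 at -5.16 the farthest, and 3 to NSC.

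By library of highest level, 8 of the 39 members peaked in ESC (20.5% against 15.5% of all genes), 3 in iPSC (7.69% against 11.2%), 9 in NSC (23.1% against 23.7%) and 19 in SC (48.7% against 49.5%). These shares lay near those of all genes. The 3 that peaked in iPSC were Fzd5, Lef1 and Wnt7b. Summed over its 2 transcripts, Fzd5 stood at 5.53, 9.53, 1.85 and 10.8 FPKM and was highest in SC.

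Other genes of the pathway, from lists outside the symbol rule, are read against the same shares of all genes. Of 10 further receptors and agonists at 1 FPKM or more, 4 were at least 2-fold higher in SC than in NSC and 1 in NSC, counts near the 35.6% and 15% of all genes. The Wnt-binding kinase-like receptor Ryk stood at 10.5 (ESC), 6.59 (iPSC), 11.7 (NSC) and 83.2 FPKM (SC), and the receptor kinase gene Ror2 at 6.07, 2.53, 5.57 and 0.160. Tspan12, a Frizzled partner, stood at 0.292 (ESC), 0.385 (iPSC), 10.3 (NSC) and 11.1 FPKM (SC), and Lgr4, an R-spondin receptor, was lowest in ESC at 2.32.

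Among extracellular antagonists, 1 of 7 was higher in both pluripotent libraries and 1 in both differentiated ones, beside 5% and 12% of all genes. The former was Notum, which removes the lipid from Wnts, at 10.2 (ESC), 4.39 (iPSC), 0.454 (NSC) and 0.0443 FPKM (SC). The latter was the Dkk1 receptor gene Kremen1, at 2.12, 2.71, 14.5 and 10.3 FPKM. Dkkl1 was highest in ESC, at 11.4 FPKM.

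Further cytoplasmic regulators were higher in both differentiated libraries in 3 of 27 and in both pluripotent ones in 1, Dact2, counts near the 12% and 5% of all genes. Tnks, a tankyrase that destabilises Axin, stood at 0.457 (ESC), 7.79 (iPSC), 19.1 (NSC) and 11.3 FPKM (SC). Nuclear cofactors were higher in the differentiated pair in 4 of 21 and in the pluripotent pair in 0, beside the same 12% and 5%. Bcl9l, a β-catenin co-activator, stood at 1.41, 1.61, 12.3 and 16.1 FPKM, and the corepressor gene Ctbp1 at 7.12, 17.7, 50.2 and 69.2. In the planar polarity and calcium branch 9 of 19 genes were higher in SC than in NSC and 2 in NSC, beside 35.6% and 15% of all genes, with Daam2 at 67.2 FPKM in SC and 0.375 in NSC.

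Genes known as Wnt targets did not move as 1 group. Of 19 at 1 FPKM or more, 5 were higher in both pluripotent libraries and 2 in both differentiated ones, beside 5% and 12% of all genes. The list includes genes with other strong regulators, such as Nanog, Sox9 and Myc, which stood at 254, 106 and 579 FPKM in ESC, SC and NSC respectively. Cdx1, a target in the gut and early embryo, stood at 82.7 (ESC) and 2.71 FPKM (iPSC), with both differentiated libraries listed at 0. Sp5, a direct target in mouse ESC, stood at 11.5 FPKM in ESC against 0.603 (iPSC), 0.524 (NSC) and 0.127 (SC). Of 16 targets at 1 FPKM or more in ESC or iPSC, 5 were higher in ESC (Ascl2, Axin2, Cdx1, Notum and Sp5) and 2 in iPSC (Cd44 and Myc), beside 13% and 13.6% of all genes. Sp5, Ascl2 and Cd44 were named after their values were seen, and Axin2 and Tcf7 are also members.

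Calls of m6A are yes or no for 5 regions of each transcript, namely the 5' UTR, the coding sequence (CDS), the 3' UTR and regions called TcSS and TsTS, names that the deposited table does not spell out. A gene was taken as called where any region of its leading transcript was. Of members at 1 FPKM or more, ESC had 22 of 25 called, iPSC 22 of 24, NSC 16 of 22 and SC 30 of 32. The share in ESC was 88.0%, with an exact (Clopper-Pearson) 95% interval from 68.8 to 97.5. That of iPSC was 91.7% (73.0 to 99.0), that of NSC 72.7% (49.8 to 89.3) and that of SC 93.8% (79.2 to 99.2). All genes were called in 69.0%, 69.2%, 58.0% and 66.7%. In iPSC and SC the share over all genes lay below the members' interval, and in ESC and NSC inside it. The intervals cover counting error over genes only.

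**Figure D3:**
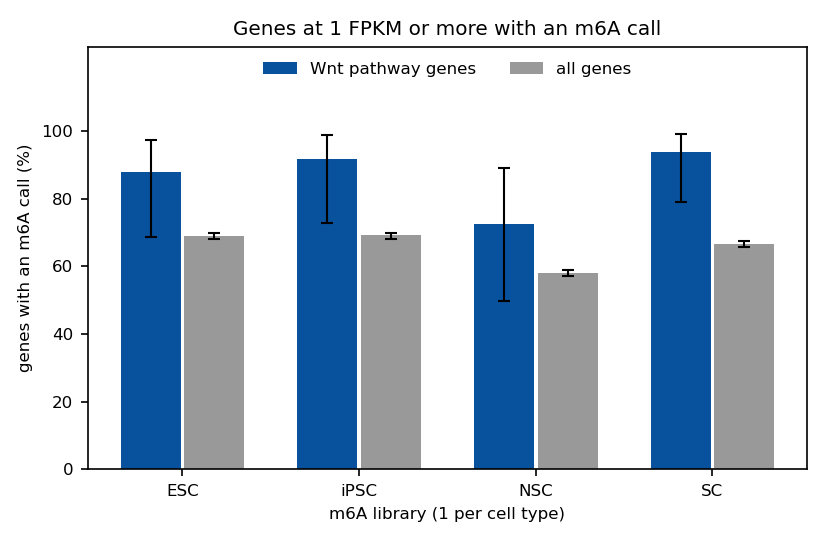
Percent of genes at 1 FPKM or more with an m6A call in any region, in 1 m6A library per cell type, for Wnt pathway genes (blue) and all genes (grey). Lines are exact 95% binomial intervals over genes; members lie at 72.7% in NSC and between 88.0% and 93.8% elsewhere.

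Over all genes, longer transcripts were called more often, and members were longer, with a median of 3250 nt against 2810 over all genes. In the longest of the 3 length groups, all 8 members at 1 FPKM or more in ESC, all 8 in iPSC, 9 of 10 in NSC and all 15 in SC were called, beside 78.3%, 88.0%, 75.2% and 80.3% of all such genes. In the middle group, from 2099 nt, 13 of 14, 12 of 14, 7 of 11 and 11 of 12 members were called, beside 75.2%, 75.7%, 61.1% and 72.3%. In the shortest group ESC had 1 of 3 members called, iPSC 2 of 2, NSC 0 of 1 and SC 4 of 5, beside 61.8%, 50.7%, 41.4% and 52.1%, so that members lay below all genes in ESC and NSC there, on very few genes. The part of length in the members' higher shares was not tested beyond these values.

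By region, members were called most often in CDS and TsTS. CDS was called in 15 of 25 members in ESC (60.0% against 40.8% of all genes), 17 of 24 in iPSC (70.8% against 45.2%), 16 of 22 in NSC (72.7% against 43.6%) and 23 of 32 in SC (71.9% against 46.1%). TsTS was called in 18 members in ESC (72.0% against 48.5%), 14 in iPSC (58.3% against 47.5%), 10 in NSC (45.5% against 36.8%) and 24 in SC (75.0% against 43.1%). All 16 members called in NSC at 1 FPKM or more were called in CDS, beside 4792 of the 6374 genes called there at that level. TsTS was the more frequent region in ESC and, by 24 members to 23, in SC.

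The 3' UTR was called in 11 members in ESC (44.0% against 26%), 9 in iPSC (37.5% against 32.3%), 9 in NSC (40.9% against 27.1%) and 8 in SC (25.0% against 22.0%). Calls in the 5' UTR were few, at 3 of 25 members in ESC (against 3.13% of all genes), 3 of 24 in iPSC (against 4.58%), 2 in NSC (9.09% against 5.07%) and 5 in SC (15.6% against 4.71%). TcSS was called in 3 of 25 members in ESC (against 16.5%), 2 in iPSC (8.33% against 11.9%), 2 in NSC (9.09% against 12%, or 1371 of 10986 genes) and 7 in SC (21.9% against 12.2%). Fzd5 carried a 5' UTR call in all 4 libraries, and Gsk3b in ESC, NSC and SC.

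**Figure D4:**
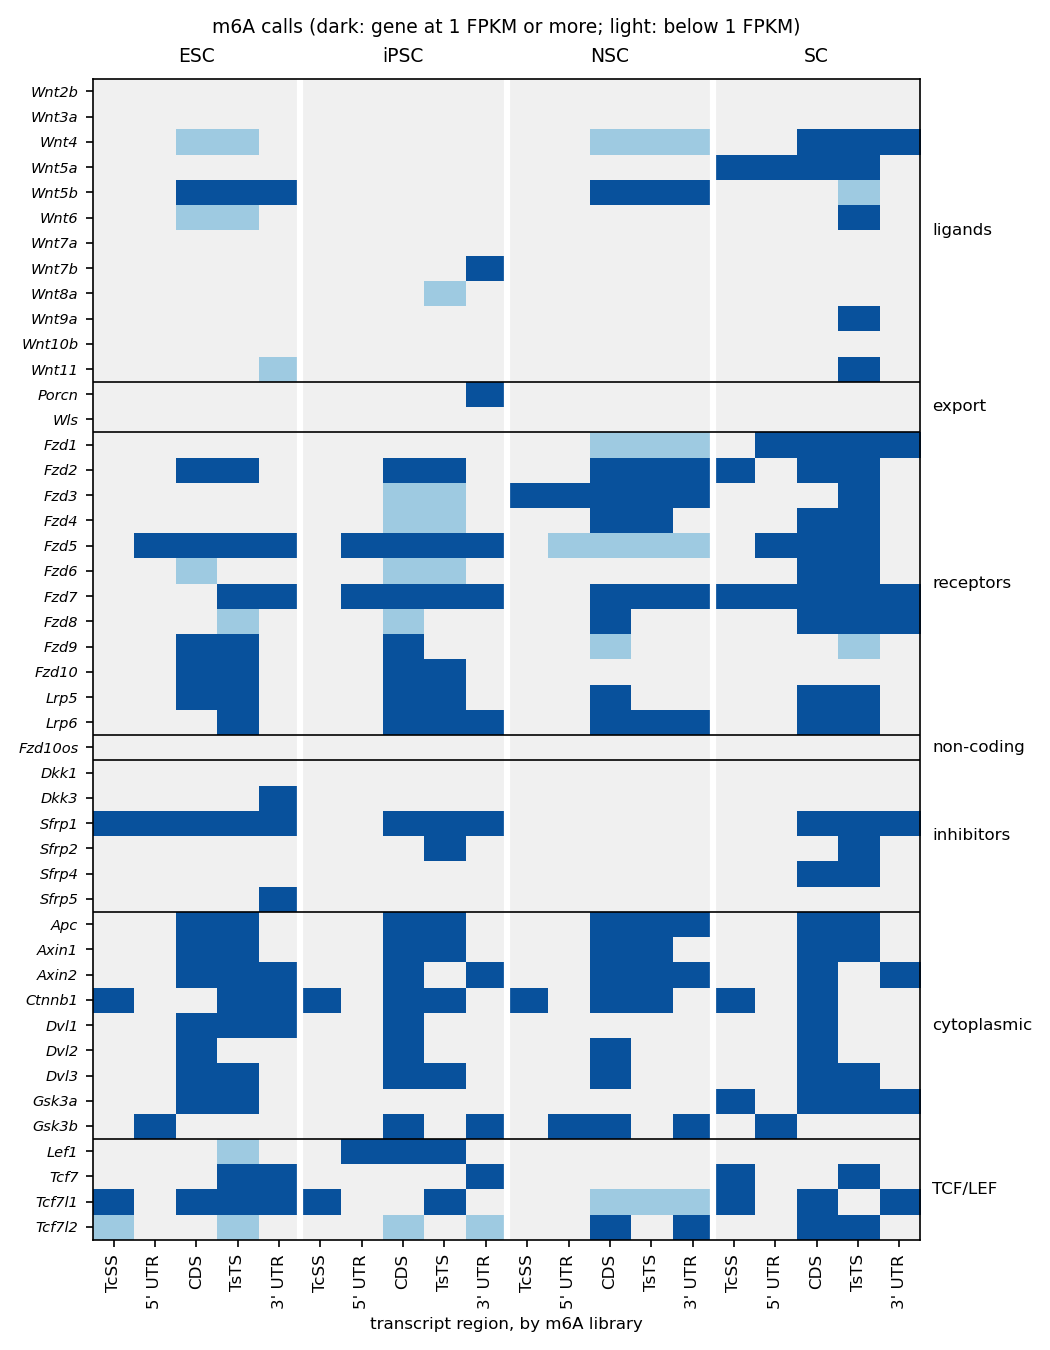
m6A calls of the 46 Wnt pathway genes in 5 transcript regions for each of 4 m6A libraries. Dark cells are calls on genes at 1 FPKM or more in the RNA library, light cells calls on genes below it; Wls is blank throughout and Axin1 holds CDS and TsTS in all 4 libraries.

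Among the 16 members at 1 FPKM or more in all 4 libraries, 11 were called in all 4 (68.8% against 45.7% of all such genes), 4 in some (25.0% against 39.9%) and 1 in none (6.25% against 14.3%). The 11 were Apc, Axin1, Axin2, Ctnnb1, Dvl2, Dvl3, Fzd2, Fzd7, Gsk3b, Lrp5 and Lrp6. Wls, at up to 181 FPKM, was the gene without a call.

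The regions called were fixed for some of these genes and not for others. Axin1 was called in CDS and TsTS in all 4 libraries, and Dvl2 in CDS alone in all 4. On its leading transcript Ctnnb1 was called in TcSS in all 4, the only 1 of the 16 to be so, with CDS in iPSC, NSC and SC and TsTS in ESC, iPSC and NSC. Its other transcript NM_007614, at 91.5 to 102 FPKM in iPSC, NSC and SC, carried a TcSS call in 0 of the 4 libraries. Gsk3b was called in the 5' UTR alone in ESC and SC, in CDS and 3' UTR in iPSC, and in all 3 of these regions in NSC.

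The 4 genes called in some libraries were Dvl1, Gsk3a, Porcn and Tcf7. Dvl1 was called in ESC, iPSC and SC and not in NSC, where its level was highest at 61.2 FPKM. Tcf7 showed the same, without a call in NSC at 54.0 FPKM and with calls in the other 3 libraries between 9.72 and 15.4. Gsk3a was not called in iPSC or NSC, at 37.9 and 34.5 FPKM. Porcn was called in iPSC alone, in its 3' UTR, at 18.5 FPKM, and not in ESC at 25.1. NSC lacked the call in all 4 of these genes, and NSC also had the lowest share of called genes overall.

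Calls were also listed for members below 1 FPKM. They numbered 7 of 21 in ESC (33.3% against 14.6% of all genes below 1 FPKM), 6 of 22 in iPSC (27.3% against 14%), 5 of 24 in NSC (20.8% against 6.81%) and 2 of 14 in SC (14.3% against 5.28%). Wnt4 was called in CDS and TsTS in ESC at 0.527 FPKM and in CDS, TsTS and 3' UTR in NSC at 0.893. Fzd5 in NSC, at 0.650 FPKM, carried the same 4 regions as in ESC and iPSC, while its second transcript stood at 1.20 FPKM there. No read support comes with a call, so how firm these are is not known.

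Ligands at 1 FPKM or more were all called. This held for all 5 ligands in SC, for Wnt5b in ESC and NSC and for Wnt7b in iPSC. Over all genes the shares called were 69.0% (ESC), 69.2% (iPSC), 58.0% (NSC) and 66.7% (SC). In SC all 10 receptors at 1 FPKM or more and all 9 cytoplasmic genes were called as well, so this was not particular to ligands. In SC, Wnt5a was called in TcSS, 5' UTR, CDS and TsTS, Wnt11 in TsTS and Wnt4 in CDS, TsTS and 3' UTR. Sfrp1 was called in all 5 regions in ESC, in CDS, TsTS and 3' UTR in iPSC and SC, and not in NSC, where it stood at 0.289 FPKM. Sfrp2 was called in TsTS in iPSC and SC, and Sfrp4 in CDS and TsTS in SC.

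The antibody targets a mark found mainly within a short consensus, of which GGACT is a common form and which lies often near the stop codon in mammals. Sequences were therefore read around the stop codon from GENCODE M21 transcripts (GRCm38), a build other than the mm9 of the submitters' processing notes, matched by RefSeq accession for all 45 coding members. Within 200 nt of the stop codon, on the transcript strand, GGACT was found in 17 of 45 coding members (37.8%) and in 39.5% of 14464 coding genes. Of members at 1 FPKM or more in ESC, 11 of 18 with a TsTS call held it and 0 of 7 without. The counts were 7 of 14 and 3 of 10 in iPSC, 5 of 10 and 3 of 12 in NSC, and 10 of 24 and 2 of 8 in SC. Over all genes the shares with and without a TsTS call were 49.1% and 31.9% in ESC, 51.0% and 29.3% in iPSC, 49.9% and 34.3% in NSC, and 48.5% and 33.7% in SC. The window is not the authors' TsTS region, and a match is not a measured site.

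The GGACT nearest the stop codon is shown for the 6 of the 16 members expressed in all libraries that hold it within that window, and for Wls, which holds none there and was never called. Capitals mark GGACT, and the letters are DNA letters of the transcript strand, 5′ to 3′.
Axin1: tggaaaaggtGGACTgagcactggg
Lrp6: ccccctgcacGGACTcctcctgagg
Lrp5: ccccctgcacGGACTcgtcctgacc
Fzd2: tcccaggtccGGACTgcaccgtgcc
Tcf7: cagctccccaGGACTcaccctcgta
Axin2: gcctagggagGGACTggcgcctggg
Wls: tacagtatctGGACTacagatgttg
These sites lay in exons, as follows. That of Axin1 (chr17:26195045-26195069, plus strand) starts 6 nt before the last base of the stop codon and overlaps the stop codon by 1 nt. Those of Lrp6 (chr6:134450784-134450808, minus strand) and Lrp5 (chr19:3585028-3585052, minus strand) lie in the coding sequence, each starting 12 nt before that base, and the 2 printed stretches are identical at 22 of 25 bases. Those of Fzd2 (chr11:102606478-102606502, plus strand), Tcf7 (chr11:52253843-52253867, minus strand) and Axin2 (chr11:108949534-108949558, plus strand) lie in the 3' UTR, 44, 26 and 149 nt after it. That of Wls (chr3:159911785-159911809, plus strand) lies in the coding sequence, 520 nt before.

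Axin1, Lrp6 and Fzd2 were called in TsTS in all 4 libraries, Lrp5 in ESC, iPSC and SC, Tcf7 in ESC and SC, and Axin2 in ESC and NSC. The paralogs Lrp5 and Lrp6 thus shared both the sequence beside the stop codon and the TsTS call in 3 libraries. Motif and call did not always go together. Fzd7 was called in TsTS in all 4 libraries, while its single GGACT lay in the 5' UTR, 1824 nt before the last base of the stop codon. Over the whole transcript, Lrp6 held 19 copies of GGACT and Lrp5 17, Wls 2, and Porcn, called in iPSC alone, 0. The median was 4 over members and 3 over all genes, or 1.19 and 1.06 per kilobase.

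Promoters were searched for CTTTGAT, a core of the TCF/LEF motif, on either strand, in the promoter window that RefSeq (GRCm38.p6) gives around each gene's start. It was found in 2 of 30 members with a promoter listed, Wnt5b and Wnt11, or 6.67%, beside 4.29% of 27025 genes. These 27025 are all genes with a listed promoter, a set other than the 15359 genes used elsewhere. The rest of the 46 members had no promoter listed and were not searched. The stretches are shown because these 2 ligands are the ones with a match, with the motif in capitals.
Wnt11: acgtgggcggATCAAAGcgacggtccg
Wnt5b: gtaagtctctCTTTGATctgctccctg
The match of Wnt11 (chr7:98835051-98835077, gene on the plus strand) starts 51 nt before the gene's start and that of Wnt5b (chr6:119449441-119449467, gene on the minus strand) 71 nt before it. Wnt11 peaked in SC at 9.89 FPKM and Wnt5b in NSC at 2.19, so the 2 did not share a pattern of levels.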

How the data were processed

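The deposited table lists 19776 RefSeq transcripts with FPKM values that the authors made from the RNA libraries, per the file headers, and other columns with yes/no m6A calls. Tools listed in the submitters' processing notes are CASAVA, Cufflinks 2.0.2 and TopHat2 2.0.4, with the mm9 build and no roles. For the m6A caller and its settings the sources used here give nothing, and read depth is unknown. Symbols came through RefSeq accessions (GRCm38.p6 table, then GENCODE M21); 226 transcripts unmatched were left out. The transcript with the highest mean FPKM stands for its gene. Differences used a pseudocount of 1, a minimum of 1 FPKM in 1 library compared and a 2-fold limit. The counting code was tested on simulated data with large changes and little noise. That checks the code and gives no support to the counts reported here. Values were computed with Python 3.11.15, pandas 2.3.3 and SciPy 1.17.1. Given with all 4 values are members past 2-fold with 5 FPKM or more on the higher side, and members at 1 FPKM or more in all 4 libraries whose m6A call differed; other members are given as far as they add to their group. From each further list of pathway or target genes, the rule names up to 4 of widest log2 range among those at 5 FPKM or more. The members and lists were chosen with earlier results of these data known.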

Additional observations from a re-analysis of the deposited data

How the results depend on the processing

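Of 95 recomputed values, 77 stayed within the limits set (1.5 times for counts, the main value's 95% interval for shares and medians) and 18 did not. With pseudocount 0.1 the members higher in both pluripotent libraries numbered 6 (against 7.96% of all genes) and those higher in ESC than iPSC 7 (against 18.2%). With pseudocount 5 the counts were 0 in both pluripotent and 5 in both differentiated libraries, against 2.07% and 5.27% of all genes. They were 2 in ESC and 1 in iPSC (against 5.86% and 4.36%), and 10 in SC over NSC (against 25.0%). After scaling by the median ratio, 4 were higher in both differentiated libraries (against 6.03% of all genes) and 5 in NSC than SC (against 21.6%). The median pluripotent minus differentiated was then -0.36, beside -0.06 over all genes. Leaving out 1 RNA library at a time gave 3 to 6 members higher in the pluripotent and 8 to 18 in the differentiated libraries, with medians from -1.13 to -0.49. With no expression minimum, 63.0% (ESC), 60.9% (iPSC), 45.7% (NSC) and 69.6% (SC) of all 46 members were called, and 23 differed in call. That setting adds the members below 1 FPKM by its construction, and no share over all genes was computed for it. For the other settings the cause was not tested. No paired analysis was possible because each cell type has 1 library per assay and the labels carry no replicate numbers. Read depth is unknown, so no detection floor can be given.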
